A study of Rattus norvegicus with 9 samples.

Results

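The interferon response and MHC class I genes described here were 39 rat genes chosen by symbol: transcription factors of the interferon pathway, the antiviral genes those factors switch on, the immunoproteasome, and the peptide transport, loading and light-chain genes of MHC class I. Of the 39 genes, 36 had a probe set (the group of short probes that measures a transcript) with a single symbol on the array, and 35 were bright enough to be tested, among 10973 genes tested in all. Ifit3 had a probe set that lay below the brightness filter on all 9 arrays, and Gbp5, Xaf1 and Trim21 were not matched to a probe set and are not analysed here.

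The arrays measured total RNA of uterine tissue from female rats in 3 groups of 3 arrays. Treatment rats received electroacupuncture at the points Guanyuan and Sanyinjiao, 15 min per session, for 7 consecutive days before ovarian induction and during it, and the same induction as the model rats. Model rats were given 0.5 U of PMSG (pregnant mare serum gonadotrophin, which drives follicle growth) per rat into the peritoneum and, 48 h later, the same amount of HCG (human chorionic gonadotrophin, which triggers ovulation). Control rats were untreated. The labels state 18 rats, 6 in each group, and do not say whether an array holds RNA of 1 rat or of several, so the p-values below measure only the spread between these arrays. Strain, age and stage of the oestrous cycle are not given in the labels used here. Model and treatment rats share the hormone induction. Both comparisons with control use the same 3 control arrays.

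Interferons are secreted proteins that bind cell-surface receptors and activate the JAK kinases and STAT transcription factors. Type I interferons act through a complex that contains STAT2 and IRF9 and binds a DNA motif called the interferon-stimulated response element (ISRE). Genes that respond to interferon gamma often carry another motif, the gamma-activated site (GAS). The genes so induced block viral replication, or raise the supply of peptides to MHC class I molecules, which display them to cytotoxic T cells. In the endometrium of several mammals such genes are known to be raised around implantation.

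The DNA just upstream of the members was read because these motifs define the pathway and were not used to choose the genes. Promoter sequence from RefSeq (build GRCr8, the 250 bases before each gene's start) was matched for 32 of the 39 genes. Isg15, Ifit1, Ifit2, Mx2, Usp18, Ifitm1 and Rtp4 had no entry. An ISRE core, searched as GAAANNGAAA on both strands, was present in 22 of the 32 (68.75%), against 902 of 27457 promoters in the whole table (3.29%). Among the constitutive proteasome subunits, relatives of the immunoproteasome genes, 2 of 15 promoters held it (13.33%). A GAS, searched as TTCNNNGAA on both strands, was present in 8 of the 32 (25%), against 2066 of 27457 (7.52%). The GAS can overlap an ISRE, as it does upstream of Bst2. Of the 10 members without an ISRE core, Irf1, Irf8, Irf9 and Psmb8 held a GAS, while Stat2, Mx1, Oasl, Ifi35, Psmb9 and Psme1 held neither string in this window. A match describes the letters and is not evidence of binding.

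Stretches of 60 bases are shown for 12 of the members described below, each on the gene's own strand, so that the match can be seen beside the gene's values. Capitals mark the motifs. An ISRE core on the opposite strand reads as TTTC, 2 bases, TTTC. In Irf1 and Irf9 the capitals mark a GAS. In Bst2 they mark a GAS running into 2 overlapping ISRE cores, in Oas1a 2 overlapping ISRE cores, and in Ifitm3 an ISRE core followed by a GAS. In the other 7 they mark an ISRE core.
Irf7 (chr1:205800058-205800117, minus strand): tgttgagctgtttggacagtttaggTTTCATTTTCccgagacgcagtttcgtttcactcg
Oas1a (chr12:41330403-41330462, plus strand): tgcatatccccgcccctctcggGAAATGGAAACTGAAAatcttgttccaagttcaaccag
Eif2ak2 (chr6:21941094-21941153, plus strand): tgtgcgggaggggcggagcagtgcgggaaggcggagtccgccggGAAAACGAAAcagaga
Bst2 (chr16:18255061-18255120, minus strand): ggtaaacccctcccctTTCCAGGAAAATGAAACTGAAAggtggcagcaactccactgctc
Gbp2 (chr2:234005667-234005726, plus strand): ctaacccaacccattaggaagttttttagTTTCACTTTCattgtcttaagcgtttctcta
Isg20 (chr1:142239942-142240001, plus strand): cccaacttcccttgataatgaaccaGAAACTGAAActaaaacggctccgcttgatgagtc
Rsad2 (chr6:48788233-48788292, minus strand): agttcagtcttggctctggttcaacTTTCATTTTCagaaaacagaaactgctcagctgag
B2m (chr3:129549155-129549214, plus strand): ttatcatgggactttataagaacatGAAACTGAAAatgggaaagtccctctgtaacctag
Tap1 (chr20:4668630-4668689, minus strand): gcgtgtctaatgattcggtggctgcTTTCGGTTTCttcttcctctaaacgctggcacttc
Irf1 (chr10:38417767-38417826, plus strand): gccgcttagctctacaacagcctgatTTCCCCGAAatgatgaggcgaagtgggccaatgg
Irf9 (chr15:33065711-33065770, plus strand): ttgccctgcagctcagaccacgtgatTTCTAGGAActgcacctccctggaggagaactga
Ifitm3 (chr1:205541768-205541827, minus strand): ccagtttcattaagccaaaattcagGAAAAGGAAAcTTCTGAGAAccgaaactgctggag

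Values below are log2(intensity + 16), where intensity is the brightness of the probe set as deposited. A difference of 1 on this scale is a factor of 2 for a bright probe set and understates the change of a dim one. Levels are compared between arrays for the same probe set only. A gene passed when its adjusted p was under 0.05 (limma, two-sided, Benjamini-Hochberg over the 10973 genes). With 3 arrays against 3 an exact permutation test of a single gene cannot go below p = 0.1.

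The array control 43 stood apart from the other control arrays. Over the genes tested, its log2 values correlated at 0.8867 with control 41 and 0.9161 with control 42, against 0.9723 with model 21, while controls 41 and 42 correlated at 0.9799 with each other. C3, the complement component that oestrogen raises in the rodent uterine epithelium, was at 4.87 in control 43, against 12.33 in control 41 and 12.08 in control 42. It was at 7.04 in model 21 and between 10.64 (model 22) and 11.56 (treatment 33) on the other induced arrays. For C3, control 43 thus lay below all induced arrays. The 3 prime to 5 prime ratio of the Actb control probe sets, a measure of RNA integrity in which higher means more 5 prime loss, was highest in control 43, at 7.84, against 5.07 to 7 on the other 8 arrays. The same ratio for Gapdh was 1.3 in control 43 and ran between 1.1 and 1.39 over all arrays, highest in model 21. Each comparison with control is therefore given with all 9 arrays and without control 43, an array set aside after its profile was seen. That leaves 2 control arrays, for which the limit of a permutation test is higher than the one given above. Because the array left out was close to an induced array, the fit without it favours larger differences from control. Genes passing rose from 3 to 1384 in model against control and from 56 to 720 in treatment against control. Calls made only without control 43 are therefore not independent of the choice to leave it out. As whole uterine tissue was used, fewer cells of a type and less RNA per cell cannot be told apart. Markers of smooth muscle (14 of 14) and of epithelium (16 of 18) were bright enough to be tested.

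Before any comparison of groups, the members varied between arrays of the same group more than genes in general did. The median SD within a group was 0.21 for the members and 0.105 for all genes tested in treatment, 0.316 and 0.118 in model, and 0.414 and 0.155 in control. Without control 43 the control values were 0.231 and 0.09. The members also moved together. A principal component, the weighted sum of genes that captures most of their variation, held 64% of the members' variance, and on it control 41 (4.47) and control 42 (2.69) lay at the high end, and model 21 (-3.04) and control 43 (-2.31) at the low end. Treatment 32 (0.98), model 22 (0.92) and model 23 (-0.13) lay between, and treatment 31 (-1.72) and treatment 33 (-1.87) were low. This axis was not particular to the members. Over all genes tested the first component held 43.1% of the variance. On that component too, control 41 (38.28) and control 42 (26.66) lay at the high end. Control 43 (-24.37) and model 21 (-24.25) were again at the low end.

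Single arrays therefore carried the same position across many members. Control 41 was the highest of the 9 arrays for 25 of the 35 members (71.4%), against 19.8% of all genes tested. Controls 41 and 42 both exceeded the other 7 arrays for 16 members (45.7%), against 13.5% of all genes. These were B2m, Eif2ak2, Ifi35, Ifi44, Irf1, Irf7, Irf9, Isg15, Mx1, Mx2, Oas1a, Oasl, Parp14, Rtp4, Stat2 and Usp18. Control 43 lay below both other controls for 28 members (80%), against 37.1% of all genes, and within the range of the 6 induced arrays for 29 (82.9%), against 65.3%. Within the model group, model 22 was the highest array for 27 members (77.1%; all genes 32.4%) and model 21 the lowest for 29 (82.9%; all genes 41.9%). Within the treatment group, treatment 32 was the highest for 29 members (82.9%; all genes 34.5%).

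**Figure D1:**
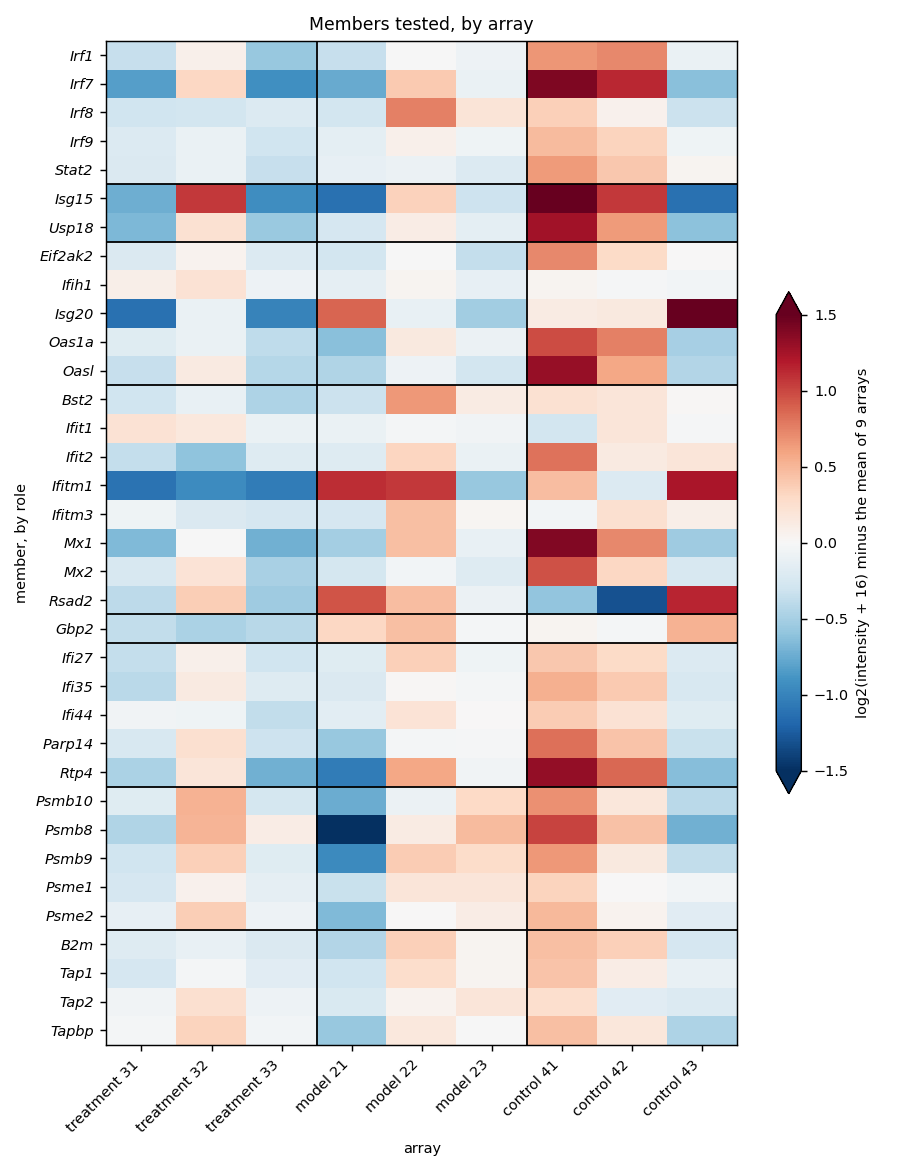
Each row is a tested member, grouped by role, and each column an array; the colour is log2(intensity + 16) minus that gene's mean over 9 arrays, with the scale stopped at 1.5 in either direction. Controls 41 and 42 are red over most rows, and control 43 is near or below 0 for most. In Isg20, Ifitm1, Rsad2 and Gbp2 control 43 is the highest array, and only in Rsad2 are controls 41 and 42 both below all others.

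The first question is whether electroacupuncture given with the induction changed these genes relative to the induction alone. In treatment against model, 0 of 35 members passed, and 0 of the 10973 genes did (0%). At an unadjusted p under 0.05 there were 2 members, Gbp2 and Ifitm1, both lower in treatment (5.71% of members, against 14.7% of all genes in either direction and 10.1% lower). Treatment and model arrays did not overlap for 3 members, Gbp2, Ifit2 and Ifitm1, all lower in treatment (8.57%, against 28% of all genes in either direction and 19.9% lower). The log2 fold change was negative for 23 of 35 members, against 61.1% of all genes, with a median of -0.13 for the members and -0.05 for all genes. The shares of members called or separated were thus below those of genes in general, and no call was lost or gained without control 43.

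The second question is what the hormone induction did. In model against control over 9 arrays, 0 of 35 members passed, and 3 of all genes did (0.0273%). At an unadjusted p under 0.05 there were 3 members, Eif2ak2, Irf1 and Stat2, all lower in model (8.57% of members, against 12.4% of all genes and 6.08% lower). Model and control arrays did not overlap for Eif2ak2 and Stat2, both lower in model (5.71%, against 14.5% of all genes in either direction and 6.73% lower). The log2 fold change was negative for 29 members, against 46.5% of all genes, and the median was -0.31 for the members and 0.02 for all genes.

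Without control 43, 6 members fell in model: Eif2ak2, Irf1, Irf9, Oas1a, Oasl and Stat2. That was 17.1% of members, against 12.6% of all genes in either direction and 6.92% lower, and 0 members rose. At an unadjusted p under 0.05 there were 15, of which 14 were lower (all genes 31.2% in either direction and 14.4% lower) and the other, Rsad2, was higher. The sign was negative for 31 members, against 45.2% of all genes, with a median of -0.45 for the members and 0.03 for all genes. For 18 members the model arrays did not overlap controls 41 and 42, and 17 of the 18 were lower in model (all genes 48.1% in either direction and 21.1% lower).

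The third question is how treatment rats differed from untreated rats. In treatment against control over 9 arrays, 0 of 35 members passed, and 56 of all genes did (0.51%). At an unadjusted p under 0.05 there were 8 members, all lower in treatment: Eif2ak2, Gbp2, Ifit2, Ifitm1, Irf1, Irf9, Isg20 and Stat2 (22.9% of members, against 17.4% of all genes and 10.8% lower). The arrays did not overlap for 8 members, Bst2, Gbp2, Ifit2, Ifitm1, Ifitm3, Irf9, Isg20 and Stat2, all lower in treatment (22.9%, against 23.3% of all genes in either direction and 13.9% lower). The log2 fold change was negative for 30 members, against 57.8% of all genes, with a median of -0.41 for the members and -0.04 for all genes.

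Without control 43, 7 members fell in treatment: Irf1, Irf9, Mx1, Oas1a, Oasl, Stat2 and Usp18. That was 20% of members, against 6.56% of all genes in either direction and 5.08% lower, and 0 members rose. At an unadjusted p under 0.05 there were 21, all lower (all genes 24.4% in either direction and 15.5% lower). The sign was negative for 32 members, against 52.6% of all genes, with a median of -0.61 for the members and -0.02 for all genes. For 26 members the treatment arrays did not overlap controls 41 and 42, and 25 of the 26 were lower in treatment (all genes 46.2% in either direction and 26.7% lower).

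**Figure D2:**
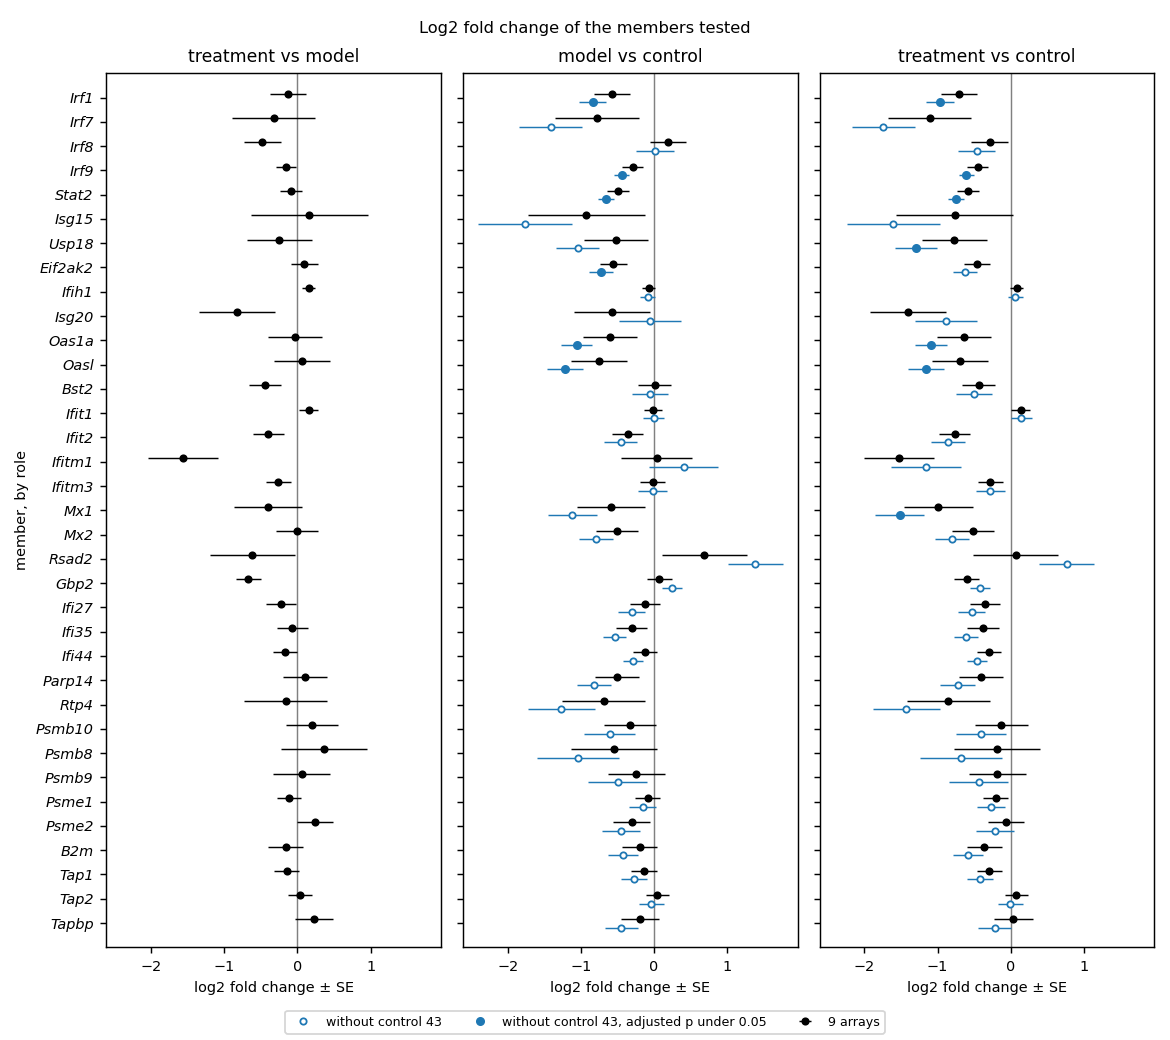
Log2 fold change ± SE of the 35 tested members in treatment against model, model against control and treatment against control, from limma; black points use 9 arrays and blue points leave out control 43, filled where the adjusted p is under 0.05. No black point passed; 6 filled points stand in model against control and 7 in treatment against control, all left of 0.

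The transcription factors held 3 of the members that fell without control 43. Stat2, which carries the activating domain of the type I interferon complex, was at 6.73, 6.84 and 6.60 in treatment, 6.82, 6.86 and 6.74 in model, and 7.58, 7.35 and 6.98 in control. All 6 induced arrays lay below all 3 controls, and control 43 was the control nearest to them. The log2 fold change was -0.58 (SE 0.15, adjusted p = 0.124) in treatment and -0.50 (SE 0.15, adjusted p = 0.284) in model against control. Without control 43 Stat2 fell in both, by 0.74 (adjusted p = 0.00962) in treatment and by 0.66 (adjusted p = 0.0131) in model. A second Stat2 probe set gave -0.53 in treatment and -0.51 in model over 9 arrays, but on it the induced arrays were not all below the controls. There treatment 32 (7.08) lay above control 43 (6.81), and model 23 (6.81) was level with control 43.

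Irf9, the DNA-binding partner of STAT2, was at 6.42, 6.53 and 6.33 in treatment, 6.48, 6.70 and 6.57 in model, and 7.10, 6.96 and 6.57 in control. Control 43 lay inside the model range, while all treatment arrays were below all controls. Its log2 fold change was -0.45 (SE 0.14, adjusted p = 0.174) in treatment and -0.29 (SE 0.14, adjusted p = 0.425) in model against control. Without control 43 it fell by 0.60 (adjusted p = 0.0161) in treatment and by 0.44 (adjusted p = 0.0335) in model. Irf1, a factor that interferon gamma induces through its GAS, was at 6.59, 7.01 and 6.36 in treatment, 6.58, 6.92 and 6.85 in model, and 7.59, 7.65 and 6.83 in control. Only controls 41 and 42 stood above the induced arrays, with control 43 among them. Without control 43 Irf1 fell by 0.97 (adjusted p = 0.0252) in treatment and by 0.84 (adjusted p = 0.0295) in model, against log2 fold changes over 9 arrays of -0.70 (adjusted p = 0.217) and -0.58 (adjusted p = 0.394).

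Irf7, the factor that amplifies type I interferon production, spread most widely among these factors and is described here because its values were seen to do so. It was at 6.45, 7.58 and 6.35 in treatment, 6.52, 7.67 and 7.17 in model, and 8.67, 8.40 and 6.64 in control. Its SD was 0.68 in treatment, 0.58 in model and 1.10 in control. It did not pass in any comparison, also without control 43, where its log2 fold change was -1.74 (adjusted p = 0.0534) in treatment and -1.41 (adjusted p = 0.0678) in model. Irf8, a factor of macrophages and dendritic cells, was at 5.42, 5.45 and 5.52 in treatment, 5.45, 6.47 and 5.91 in model, and 6.08, 5.78 and 5.40 in control. The 3 treatment arrays were close together and the high value in model came from model 22, the array with the highest macrophage marker level. The part of macrophages in the Irf8 level was not tested. The difference of treatment against model was -0.48 (SE 0.25, adjusted p = 0.397).

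Isg15, a ubiquitin-like protein attached to other proteins during the antiviral response, is described because its arrays differed most visibly. It was at 6.61, 8.40 and 6.41 in treatment, 6.22, 7.69 and 7.03 in model, and 9.09, 8.40 and 6.22 in control. Treatment and control each held arrays high and low in this range, and the model arrays reached its middle, with SDs of 1.10 in treatment, 0.74 in model and 1.50 in control. The difference was -0.76 (SE 0.80, adjusted p = 0.658) in treatment and -0.92 (SE 0.80, adjusted p = 0.612) in model against control. Usp18, the protease that removes ISG15 and damps the type I receptor, was at 6.25, 7.15 and 6.37 in treatment, 6.68, 7.04 and 6.78 in model, and 8.19, 7.57 and 6.31 in control. Control 41 and control 42 were above all other arrays, and control 43 (6.31) was below all of them but treatment 31. Without control 43 Usp18 fell by 1.29 (adjusted p = 0.0408) in treatment, and the model value was -1.04 (adjusted p = 0.0548).

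Among the sensors and RNA-directed effectors, Oas1a and Oasl, the 2-prime-5-prime oligoadenylate synthetase genes in the member list, differed alike. Oas1b, a relative outside that list, was below the brightness filter on all 9 arrays. Oas1a, which makes the second messenger that activates RNase L, was at 6.74, 6.82 and 6.54 in treatment, 6.30, 7.07 and 6.84 in model, and 7.90, 7.68 and 6.43 in control. Oasl, a related protein, was at 5.68, 6.16 and 5.59 in treatment, 5.57, 5.94 and 5.74 in model, and 7.33, 6.60 and 5.58 in control. For both, controls 41 and 42 stood above the 6 induced arrays and control 43 did not. Over 9 arrays the log2 fold changes against control lay between -0.76 and -0.60 with adjusted p of 0.383 to 0.492. Without control 43 Oas1a fell by 1.09 (adjusted p = 0.0258) in treatment and by 1.06 (adjusted p = 0.0217) in model, and Oasl fell by 1.16 (adjusted p = 0.0338) in treatment and fell by 1.22 (adjusted p = 0.0217) in model. Treatment against model differed by -0.03 for Oas1a and 0.06 for Oasl, well within their spread.

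Eif2ak2 encodes PKR, the kinase that stops translation when it binds double-stranded RNA. It was at 5.86, 6.13 and 5.88 in treatment, 5.80, 6.08 and 5.72 in model, and 6.80, 6.37 and 6.09 in control. All model arrays were below all controls, though model 22 and control 43 nearly touched, while treatment 32 overlapped control 43. Over 9 arrays the model difference was -0.56 (SE 0.18, adjusted p = 0.318), and without control 43 Eif2ak2 fell by 0.72 (adjusted p = 0.03) in model, with a treatment value of -0.63 (adjusted p = 0.0632). Isg20, an exonuclease of RNA, was named after its values were seen because control 43 was at the top of its range. It was at 6.10, 7.12 and 6.22 in treatment, 8.10, 7.11 and 6.70 in model, and 7.35, 7.37 and 8.93 in control. Treatment arrays were below all controls (log2 fold change -1.40, SE 0.52, adjusted p = 0.234), and the treatment difference without control 43 was -0.88 (adjusted p = 0.252). Ifih1, the RNA sensor MDA5, was above the brightness filter on 5 of 9 arrays and its 3 log2 fold changes lay between -0.07 and 0.15.

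The antiviral effectors split into members that followed controls 41 and 42 and members that did not. Mx1, a GTPase that blocks incoming viral nucleocapsids, was at 4.81, 5.47 and 4.75 in treatment, 4.96, 5.92 and 5.36 in model, and 6.86, 6.19 and 4.94 in control. It was above the brightness filter on 5 arrays only, controls 41 and 42, model 22, model 23 and treatment 32. Without control 43 it fell by 1.52 (adjusted p = 0.0375) in treatment, and its log2 fold change in model was -1.12 (adjusted p = 0.067). Its relative Mx2 gave -0.80 and -0.79 without control 43, neither passing.

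Ifit2, which binds viral RNA and blocks its translation, was at 6.08, 5.84 and 6.24 in treatment, 6.25, 6.76 and 6.34 in model, and 7.25, 6.57 and 6.62 in control. Treatment arrays were below all others, treatment 33 only just below model 21. The log2 fold change was -0.76 (SE 0.21, adjusted p = 0.144) in treatment against control and -0.40 (SE 0.21, adjusted p = 0.399) in treatment against model, and control 43 sat beside control 42 here, so leaving it out gave a similar -0.86 against control (adjusted p = 0.071). A second Ifit2 probe set gave -0.56 in treatment against control, and its treatment and model arrays overlapped (treatment 33 at 5.38, model 21 at 5.31). Ifit1, its relative, differed by 0.15 or less in either direction.

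Ifitm1 showed the largest difference of any member between treatment and model. This member of the interferon-induced transmembrane proteins, which restrict virus entry, was at 8.85, 9.01 and 8.91 in treatment, 11.06, 11.02 and 9.39 in model, and 10.42, 9.75 and 11.18 in control. The 3 treatment arrays lay close together (SD 0.08) and below all 6 others, while model and control each spread over more than 1 log2 unit. The log2 fold change was -1.56 (SE 0.48, adjusted p = 0.286) in treatment against model and -1.53 (SE 0.48, adjusted p = 0.182) against control, and -1.16 (adjusted p = 0.184) against control without control 43. Ifitm3, which blocks virus fusion in endosomes, was at 11.09, 10.94 and 10.91 in treatment, 10.91, 11.61 and 11.19 in model, and 11.11, 11.40 and 11.25 in control. Every treatment array was below every control, with treatment 31 just under control 41, and the difference of -0.28 (adjusted p = 0.426) did not pass.

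Bst2 encodes tetherin, which holds budding virions on the cell surface. It was at 8.79, 8.98 and 8.63 in treatment, 8.77, 9.74 and 9.22 in model, and 9.32, 9.28 and 9.11 in control. Treatment arrays were below all controls and overlapped model 21, with a difference of -0.44 (adjusted p = 0.345) against control and -0.45 (adjusted p = 0.379) against model. Rsad2, or viperin, makes a chain-terminating nucleotide and was named after its values were seen because its direction was opposite. It was at 6.96, 7.72 and 6.82 in treatment, 8.29, 7.81 and 7.26 in model, and 6.76, 6.05 and 8.50 in control. Here control 41 and control 42 were the lowest of the 9 arrays, which held for this member alone of the 35 (all genes 10%), and control 43 was the highest. The model difference was 0.68 (SE 0.58, adjusted p = 0.605) over 9 arrays and 1.38 (SE 0.37, adjusted p = 0.0504) without control 43.

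Gbp2, a guanylate-binding protein that interferon gamma induces and that attacks the vacuoles of intracellular pathogens, had closely grouped treatment arrays (SD 0.05). It was at 6.72, 6.62 and 6.68 in treatment, 7.40, 7.55 and 7.07 in model, and 7.13, 7.06 and 7.62 in control. Treatment lay below all 6 other arrays, with a difference of -0.67 (SE 0.17, adjusted p = 0.286) against model and -0.60 (SE 0.17, adjusted p = 0.151) against control. Without control 43 the value against control was -0.42 (adjusted p = 0.109). Gbp2, Ifitm1, Isg20 and Rsad2 were the 4 members highest in control 43 (11.4%, against 16.7% of all genes).

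**Figure D3:**
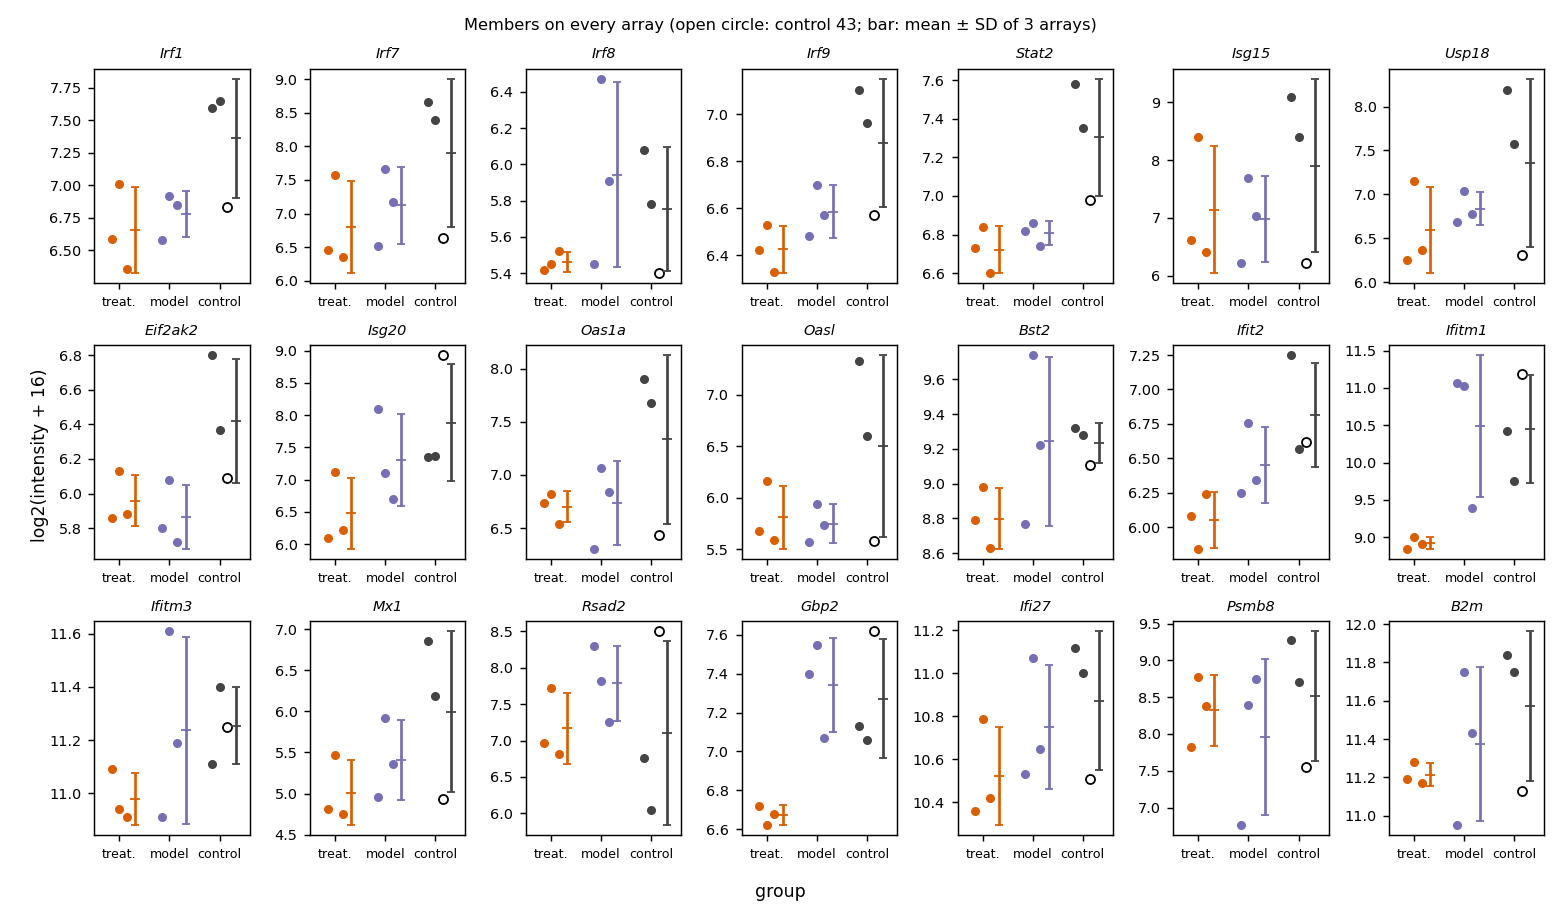
Log2(intensity + 16) of the 21 members described with values on every array; each filled point is an array, the open circle is control 43, and the bar is the group mean ± SD (n = 3). Each panel has its own vertical scale. Treatment points lie below all others in Gbp2, Ifit2 and Ifitm1, and control 43 lies below the other controls in most panels.

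The remaining induced genes followed the arrays in the same way. Ifi27, a small mitochondrial and nuclear membrane protein, was at 10.36, 10.79 and 10.42 in treatment, 10.53, 11.07 and 10.65 in model, and 11.12, 11.00 and 10.51 in control. The groups overlapped, with control 43 inside the induced range. Ifi35, Ifi44, Parp14 and Rtp4 had log2 fold changes of -0.85 to -0.12 against control over 9 arrays, and of -1.43 to -0.28 without control 43. None of these 5 genes passed in either fit.

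The immunoproteasome genes replace the constitutive catalytic subunits when cells meet interferon gamma, and Psme1 and Psme2 form its activator cap. They were carried by single arrays more than by groups. Psmb8, named after its values were seen, was at 7.82, 8.78 and 8.38 in treatment, 6.76, 8.39 and 8.74 in model, and 9.28, 8.71 and 7.55 in control. Model 21 and control 43 were low and the other arrays overlapped across groups. Model 21 was also the lowest of the 9 arrays for Psmb9 (6.67), Psmb10 (6.25), Psme1 (9.17) and Psme2 (7.81). The 5 genes had log2 fold changes of -0.20 to -0.06 in treatment against control and -0.55 to -0.09 in model against control, and treatment against model ran between -0.11 and 0.36. None passed, also without control 43.

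The MHC class I light chain and peptide transporters varied less. B2m, the light chain common to all class I molecules, was at 11.19, 11.28 and 11.17 in treatment, 10.95, 11.75 and 11.43 in model, and 11.84, 11.75 and 11.13 in control. Model 21 and control 43 were the lowest, and treatment lay inside the range of both other groups. Its differences were -0.36 (adjusted p = 0.452) in treatment against control, -0.20 (adjusted p = 0.713) in model against control and -0.16 in treatment against model. A second B2m probe set gave -0.34, -0.01 and -0.33. Tap1 and Tap2, which carry peptides into the endoplasmic reticulum, and Tapbp (tapasin), which holds the class I molecule beside them, had log2 fold changes of -0.29 to 0.08 against control over 9 arrays and none passed in either fit.

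Other parts of the pathway were read from lists of its known genes. Of 23 interferon ligands, receptors and signal transducers, 17 had a probe set and 13 were tested. The ligands Ifnb1 (intensity 6.7 to 10.9), Ifng (2.8 to 3.5) and Ifnk (3.6 to 4.9) were below the brightness filter on all 9 arrays, so no change in these ligands could be read. Over 9 arrays 0 of the 13 passed, with medians of -0.16 in treatment and -0.04 in model against control (all genes -0.04 and 0.02). Without control 43, 2 fell in each comparison, while 5.08% of all genes fell in treatment and 6.92% in model. Ifngr1, a chain of the interferon gamma receptor, then fell by 0.91 (adjusted p = 0.0057) in treatment and by 0.57 (adjusted p = 0.0217) in model. Stat3 fell by 0.40 in treatment (adjusted p = 0.0365) and Il10rb, the receptor chain shared by interleukin 10 and type III interferons, by 0.70 in model (adjusted p = 0.0483). Jak2, the kinase of the gamma receptor, was at 7.92, 8.09 and 8.19 in treatment, 6.48, 6.59 and 7.80 in model, and 6.79, 6.69 and 6.49 in control. Treatment lay above all 6 other arrays, with model 23 near it, and the difference of 1.41 against control did not pass (adjusted p = 0.107; 0.0682 without control 43).

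Of 19 nucleic acid sensors and adaptors, 11 had a probe set and 10 were tested, and none passed over 9 arrays. All 10 had negative log2 fold changes in treatment against control (all genes 57.8%), with a median of -0.19, and 8 of 10 in model against control (all genes 46.5%), with a median of -0.14. Without control 43, 3 of 10 fell in each comparison, against 5.08% of all genes in treatment and 6.92% in model. Zbp1, a sensor of left-handed nucleic acid, fell by 1.41 (adjusted p = 0.0128) in treatment and by 1.14 (adjusted p = 0.0211) in model. Dhx58, a helicase that regulates RNA sensing, fell by 0.34 in both (adjusted p = 0.036 in treatment and 0.0254 in model).

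Of 55 other interferon-regulated genes, 41 had a probe set and 38 were tested. None passed over 9 arrays, and 33 of 38 had negative log2 fold changes in treatment against control (all genes 57.8%) and 29 of 38 in model against control (all genes 46.5%), with medians of -0.30 in treatment and -0.17 in model. Without control 43, 8 fell and 1 rose in treatment, where 6.56% of all genes passed and 5.08% fell. In model 9 fell, where 12.6% of all genes passed and 6.92% fell. Trim25, the ligase that activates the RNA sensor RIG-I, was at 6.86, 7.04 and 7.11 in treatment, 7.02, 7.08 and 7.03 in model, and 7.86, 7.66 and 7.11 in control. It fell without control 43 by 0.76 (adjusted p = 0.008) in treatment and by 0.72 (adjusted p = 0.00913) in model. Control 43 again stood with the induced arrays. Ly6e, a membrane protein that restricts coronavirus entry, was at 8.18, 7.94 and 7.79 in treatment, 8.92, 9.01 and 8.64 in model, and 9.02, 8.68 and 9.37 in control. Treatment lay below all 6 other arrays for Ly6e. Of all genes, 19.9% had every treatment array below every model array. The log2 fold change of Ly6e was -1.05 in treatment against control over 9 arrays (adjusted p = 0.0586), and it fell by 0.88 without control 43 (adjusted p = 0.0235).

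MHC class I heavy chains and their helpers were read in the same way. Of 25 such genes, 15 had a probe set and 14 were tested, with 0 passing over 9 arrays. Medians were -0.20 in treatment and -0.19 in model against control (all genes -0.04 and 0.02). The log2 fold changes ran between -0.65 and 0.34 in treatment, with 11 of 14 negative (all genes 57.8%). In model they ran between -0.58 and 0.22, with 10 of 14 negative (all genes 46.5%). The rat heavy-chain genes are near-identical copies, so the probe sets of RT1-CE10, RT1-CE16 and their relatives may read more than their own gene. Without control 43, 1 of 14 fell in treatment and 2 of 14 in model, where 5.08% and 6.92% of all genes fell. Cd1d1, which presents lipids, fell by 0.80 (adjusted p = 0.0213) in treatment and by 0.73 (adjusted p = 0.0217) in model. Pdia3, the oxidoreductase of the loading complex, fell by 0.76 in model (adjusted p = 0.0182). The constitutive proteasome subunits, tested for 14 of 16 genes, had medians of -0.14 in both comparisons with control, with 0 passing over 9 arrays. In each of these comparisons 13 of 14 log2 fold changes were negative (all genes 57.8% in treatment and 46.5% in model). Without control 43, 2 of 14, Psma2 and Psme4, fell in both, against 5.08% of all genes in treatment and 6.92% in model.

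The cell-type markers are given beside these values because whole tissue was used. For each list, the median deviation of its tested genes from their means over 9 arrays was taken per array. The members stood at -0.29, 0.08 and -0.30 in treatment, -0.28, 0.16 and -0.05 in model, and 0.49, 0.25 and -0.21 in control. Epithelial markers (16 of 18 tested) stood at -0.31, 0.15 and 0.16 in treatment, -0.69, -0.52 and -0.08 in model, and 1.10, 0.76 and -0.63 in control. Their summed intensity was 4846 to 7400 in treatment, 4168 to 5734 in model and 5306 to 21367 in control. By median, both lists were high in controls 41 and 42 and low in control 43. The epithelial markers did not all follow that median in control 43. Cldn3 (10.05) and Cldn4 (7.23) were at their highest there, and Epcam (10.37) and Prom1 (9.72) were above all induced arrays. Elf3 followed it, at 5.78 in control 43 against 9.79 in control 41 and 9.37 in control 42. Over 9 arrays 0 of the 16 epithelial markers tested passed, with median log2 fold changes of -0.38 in treatment and -0.72 in model against control. Without control 43, 3 of 16 fell in treatment and 11 of 16 in model, where 5.08% and 6.92% of all genes fell. The epithelial medians were then -0.91 and -1.40, against -0.61 and -0.45 for the members. The part of epithelium in the members' levels was not tested.

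Macrophage and MHC class II markers (19 of 20 tested, Cd163 being below the filter on all 9 arrays) stood at -0.11, -0.76 and -0.24 in treatment, -0.63, 1.04 and 0.41 in model, and 0.58, 0.01 and -0.44 in control. Their summed intensity was 1956 to 3013 in treatment, 1950 to 8238 in model and 2386 to 5935 in control. Model 22, high in most members, was the highest in this list, and model 21, low in most members, was low in it. Treatment 32, the highest treatment array for 29 members, was the lowest of the 9 arrays for macrophage markers by median deviation. T and natural killer cell markers were tested for 9 of 18 genes, with summed intensities of 158 to 223 in treatment, 190 to 520 in model and 178 to 231 in control, and Cd5, Gzma and Ncr1 were below the filter on all 9 arrays. Endothelial markers (11 of 12 tested) were lowest in treatment 32, at -0.97, and highest in control 43, at 0.66. The part of immune and endothelial cells in the members' levels was not tested.

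Smooth muscle and stromal markers were low on control 41, the array highest for most members. Smooth muscle markers (14 of 14 tested) stood at 0.20, 0.19 and -0.05 in treatment, 0.26, 0.10 and 0.02 in model, and -0.72, 0.01 and -0.03 in control. All 14 had positive log2 fold changes in both comparisons with control, with 0 passing over 9 arrays. Their summed intensity was 29343 to 35363 in treatment, 30455 to 35871 in model and 20014 to 31153 in control. Fibroblast and stromal markers (10 of 10 tested) were at -0.75 in control 41, -0.18 in control 42 and 0.47 in control 43, and 10 of 10 had positive log2 fold changes in model against control, against 4 of 10 in treatment against control, again with 0 passing. Their summed intensity was 7979 to 13122 in treatment, 11077 to 14955 in model and 7830 to 15904 in control. The part of these cell types in the members' levels was not tested.

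**Figure D4:**
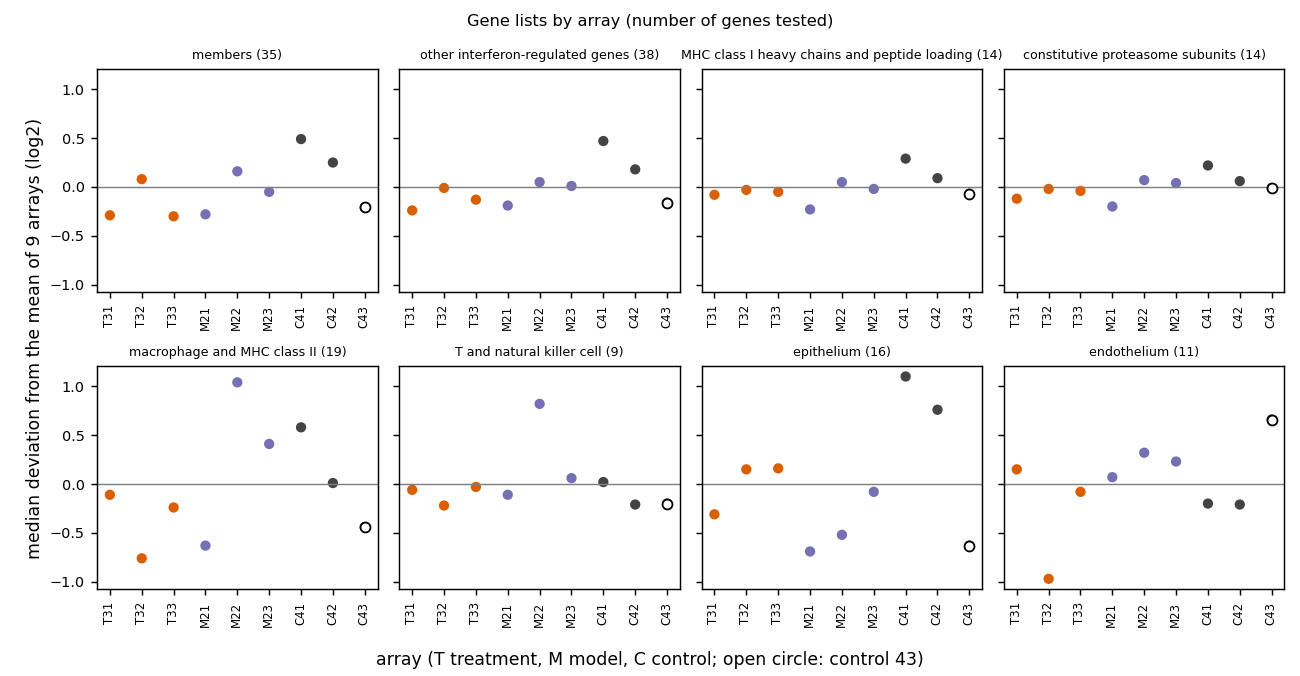
Median deviation of each list's tested genes from their means over 9 arrays (log2), per array, for the members, 3 related gene lists and 4 cell-type marker lists; points are arrays and the open circle is control 43. Controls 41 and 42 are highest for the members (0.49 and 0.25) and for epithelium (1.10 and 0.76), and model 22 is highest for macrophage markers (1.04).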

How the data were processed

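Total RNA of 9 uterine samples, 3 arrays in each of 3 groups, was biotin-labelled and read on an Affymetrix rat array, per the labels' protocols. The deposited table gave an intensity for 31099 probe sets on a linear scale, which the authors computed with MAS5, per the submitters' processing notes. Scaling targets and any further normalization between arrays were not stated. Array medians were 23.5 to 23.96, and intensities ran between 1.87 and 7895.7. The number of arrays limits the precision. Array control probe sets (57) were left out. The deposited intensity was not on a log2 scale, so log2(intensity + 16) was taken here. Probe sets at or above the 40th percentile of their own array on at least 3 of 9 arrays were kept (19327). Symbols came from the platform annotation, updated by gene ID: 20826 probe sets had 1 symbol and 436 had several, which were not named. Each gene took its brightest kept probe set by mean log2 value, which left 10973 genes.

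Groups were compared with limma 3.58.1 in R 4.3.3 (lmFit, then eBayes with trend on; residual degrees of freedom 6) in two-sided tests, with Benjamini-Hochberg adjustment over all genes tested, and tested first on simulated data. The members and gene lists were chosen with earlier results of these data known, so no list count is independent support. Values on every array are given for each member that passed in either fit, for the 4 members with the smallest p in each comparison, and for the 3 with the highest mean, and of each further list up to 4 genes with the smallest p may be named. Irf7, Isg15, Isg20, Rsad2 and Psmb8 were added after their values were seen. Sequences came from RefSeq promoters of build GRCr8, taking the first entry where a gene had several. Array numbers end in the same digits across groups, but pairs of equal last digit correlated at -0.408 to 0.311 in their deviations from group means, so they were not treated as pairs. The alternatives were the value added before the log, the normalization, the filter, the variance model, the arrays fitted, the choice of probe set, a replicate block, the threshold, and leaving out each array.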

Additional observations from a re-analysis of the deposited data

How the results depend on the processing

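In every setting that kept all 9 arrays, or the 6 compared, 0 members passed in any of the 3 comparisons at an adjusted p under 0.05. Leaving out single arrays gave 0 to 6 passing members in model against control and 0 to 7 in treatment against control, both upper values without control 43, and 0 in treatment against model. Members at an unadjusted p under 0.05 numbered 1 (without model 23) to 15 (without control 43) in model against control, 5 (without treatment 31 or 33) to 21 (without control 43) in treatment against control, and 2 to 5 (without model 21) in treatment against model. Genes passing over the whole table numbered 0 to 1384, 0 to 720 and 0 to 3 in these comparisons, the first 2 upper values without control 43 and the last without model 23. In model against control, where 3 genes passed, 1 passed with no filter, 1 with only the 6 compared arrays and 9 at an adjusted p under 0.1. In treatment against control, where 56 passed (19 higher, 37 lower), 164 passed at an adjusted p under 0.1, and quantile normalization gave 27 higher and 28 lower. With arrays of equal last digit set as a replicate block, 27 passed (16 higher, 11 lower) and 0 members did; the numbers do not pair the arrays. The cause of these changes was not tested.

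Several signs turned. Bst2 in model against control was -0.001 after median centring, Rsad2 in treatment against control was -0.007 with 64 added before the log, and under quantile normalization Oas1a and Stat2 in treatment against model were 0.061 and 0.009, with 19 rather than 23 members negative there. Leaving out single arrays gave, in model against control, ranges of -0.42 to 0.016 for B2m, -0.24 to 0.24 for Bst2, -0.039 to 0.25 for Gbp2, -0.31 to 0.59 for Ifitm1, -0.21 to 0.14 for Ifitm3 and -0.072 to 0.44 for Irf8. In treatment against model they were -0.37 to 0.026 for B2m, -0.31 to 0.021 for Irf1, -0.47 to 0.52 for Isg15, -0.25 to 0.13 for Oas1a and -0.11 to 0.17 for Oasl, and in treatment against control -0.46 to 0.77 for Rsad2. For Psmb8 the ranges were -1.03 to 0.051 in model against control (above 0 without model 21), -0.67 to 0.19 in treatment against control and -0.24 to 0.75 in treatment against model (below 0 without model 21). Over the 35 members, up to 9 signs turned in model against control and up to 7 in treatment against model, both without model 21, and up to 5 in treatment against control, without control 41. Gbp2, Ifit2 and Ifitm1 stayed negative in treatment against model in every setting run. Their treatment and model arrays did not overlap, so leaving out an array could not turn these signs. It was not particular to them, as Irf9 (-0.21 to -0.10) and Isg20 (-1.14 to -0.43), among others, also stayed negative whichever array was left out.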
